A study of Mus musculus with 6 samples.

Results

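The protocadherins are represented by 37 of the 35556 probe sets on these arrays, chosen by gene symbol in the platform annotation with each probe set kept separate; they carry 48 gene symbols. They comprise 1 probe set of the alpha cluster, which carries 14 alpha symbols, 22 of the beta cluster, each with 1 symbol, and 14 of 12 non-clustered genes. No probe set carries a gamma cluster symbol in that annotation, so the 22 gamma genes of the gene table were not analysed here. The rule uses symbols and no measured value, but the family was picked with results of this comparison known, so counts of changed members below are descriptions.

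The arrays measured total RNA of BCR-ABL1-transformed B cell precursors of 129SvEv mice, labelled as a model of Philadelphia chromosome-positive acute lymphoblastic leukemia, which the BCR-ABL1 fusion kinase drives. One group of 3 samples is labelled Etv5 wild type and the other, also of 3, Etv5 knockout. Etv5 is an ETS-family transcription factor. All 6 samples carry the transformation, and the sources used here do not give the vector, the exons deleted, the sex or age of the mice, or whether samples of a group came from separate animals or cultures, so the p-values cover no more than the variation among these arrays, part of which may be technical.

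Protocadherins are cell surface proteins of the cadherin superfamily, best known from the nervous system. Alpha, beta and gamma protocadherins are encoded in tandem arrays of promoters and variable exons, from which a neuron expresses a small combination by promoter choice, and the resulting proteins recognise identical partners on other cells. The insulator protein CTCF and the cohesin ring link the chosen promoter to an enhancer. Alpha and gamma variable exons are spliced to constant exons, whereas a beta gene consists of a single coding exon. Non-clustered protocadherins lie apart from these arrays and include the delta protocadherins, which mediate weak adhesion and signal through their cytoplasmic tails.

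In the knockout samples the X-linked delta protocadherin gene Pcdh11x was lower and the neighbouring beta genes Pcdhb21 and Pcdhb22 were higher. Pcdh11x fell 1.66-fold from a bright signal, Pcdhb21 rose 2.49-fold from a dim one, and Pcdhb22 rose 1.64-fold. The other 34 probe sets did not pass the test, among them both probe sets of Pcdh9, another delta protocadherin gene with a bright signal. By limma with Benjamini-Hochberg adjustment over all probe sets at 0.05, 2 of 37 members were called higher, beside 1.63% of all probe sets, and 1 was called lower, beside 1.45%. The count called higher was 0 or 1 in the 6 fits without 1 sample, and 0 at a threshold of 0.01; the count called lower stayed at 1. In either direction this is 3 of 37 beside 3.08%; since the family was proposed with this comparison known, nothing is read from that difference.

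Most protocadherin signals were in the range of receptor genes taken here as not used by blood cells. The 1210 probe sets of olfactory and vomeronasal receptor genes served as a dim reference. Their mean log2 signal over the 6 arrays had a median of 5.53 and a 95th percentile of 7.22, with 9.68 as the highest. Of the 37 protocadherin probe sets, 26 lay at or below that 95th percentile. The median of the 37 was 6.77, above the reference median, so the members were typically brighter than the reference. The 11 above it were Pcdh11x, both Pcdh9 probe sets, Pcdhb4, Pcdhb15, Pcdhb16, Pcdhb22, Pcdh8, Pcdh12, Pcdh17 and 1 of the probe sets of Pcdh15. The 3 of Pcdh11x and Pcdh9 were the members above the highest reference signal. Probes differ in affinity and no detection calls came with the values, so a member within the reference range was not shown to be above background, and its change in RNA may be larger than its change in signal.

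**Figure D1:**
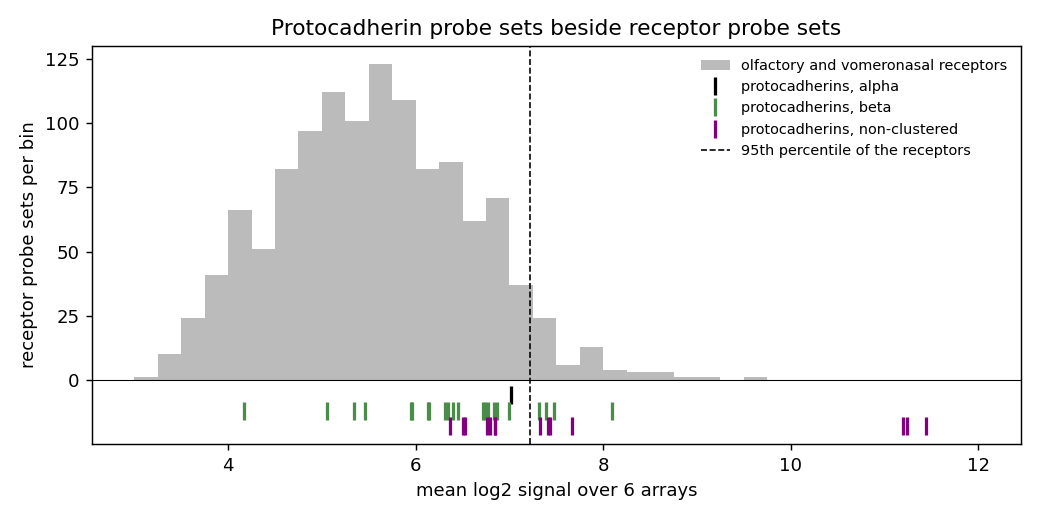
Histogram of the mean log2 signal over 6 arrays of 1210 olfactory and vomeronasal receptor probe sets (vertical axis, probe sets per bin), with a tick for each of the 37 protocadherin probe sets below it and a dashed line at the receptors' 95th percentile of 7.22. The 3 ticks of Pcdh11x and Pcdh9 stand apart above 11, and 26 of the 37 lie at or left of the line.

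Values that bear on the labels were read beside the members. Of the pair of Etv5 probe sets, 10438626 read 9.30, 9.52 and 9.27 on the wild-type arrays against 8.97, 8.91 and 8.92 on the knockout arrays (limma adjusted p = 0.0467). The other, 10363901, gave 11.48, 11.52 and 11.46 against 11.67, 11.88 and 11.73 (adjusted p = 0.13). The first, with a log2 change of -0.43 and an adjusted p close to the threshold, goes with the labels. Whether its call held without 1 sample is not reported here. Where the probes lie relative to the deletion is not given, so neither was shown to test it. By number, 10363901 lies close to probe set 10363915 of Pcdh15, a gene of chromosome 10, and whether it reads Etv5 RNA was not examined. Of 12 B cell precursor markers 11 had a probe set, all above the dim reference's 95th percentile, and the median of their mean signals was 12.78. Of these 11, Pax5, which maintains B lineage identity, was called higher (log2 change 0.43, limma adjusted p = 0.0127), but not without wild-type sample 1 or 2 or knockout sample 3 (highest adjusted p 0.0751). None was called lower, and the median change was 0.07. Cd22 and Cd79b did not pass but had an unadjusted limma p under 0.05, both higher in the knockout (log2 differences 0.38 and 0.13, adjusted p = 0.0526 and 0.401). Over all genes with a single-gene probe set, 2.42% were called higher and 2.01% lower. Array medians lay between 7.79 and 7.84 and pairwise correlations across probe sets between 0.991 and 0.997. The median difference over all probe sets was -0.00098 log2 units.

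Of the non-clustered genes, Pcdh11x and Pcdh9 are among the delta protocadherins of the branch whose tails bind protein phosphatase 1. Pcdh11x gave 11.50, 11.60 and 11.72 in wild-type samples 1 to 3 and 10.81, 10.89 and 10.92 in knockout samples 1 to 3 (log2 signal). All 3 knockout values were below all 3 wild-type values, and the gap between the groups exceeded the range within either. The mean fell from 11.61 ± 0.11 to 10.87 ± 0.057 (SD, n = 3 each), a log2 change of -0.73 ± 0.073 (SE, 95% interval -0.91 to -0.56, limma adjusted p = 0.00457). The call held in all 14 alternative settings, with adjusted p-values of 0.000472 to 0.027, and in the 6 fits without 1 sample the change lay between -0.79 and -0.67.

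Pcdh9 was measured by a pair of probe sets with similar signals. Probe set 10421924 gave 11.18, 11.22 and 11.33 on the wild-type arrays and 11.12, 11.22 and 11.13 on the knockout arrays. Its groups overlapped, and the difference of -0.08 log2 units had a 95% interval of -0.24 to 0.07. Probe set 10421932 gave 11.45, 11.48 and 11.56 on the wild-type arrays and 11.35, 11.45 and 11.37 on the knockout arrays. These groups did not overlap, but by a margin smaller than the range within either group, and the difference of -0.11 (95% interval -0.24 to 0.03) did not pass (limma adjusted p = 0.62). Over both probe sets the intervals end at -0.24, whereas the interval of Pcdh11x ends at -0.56. Whether the changes of these genes differ was not tested.

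**Figure D2:**
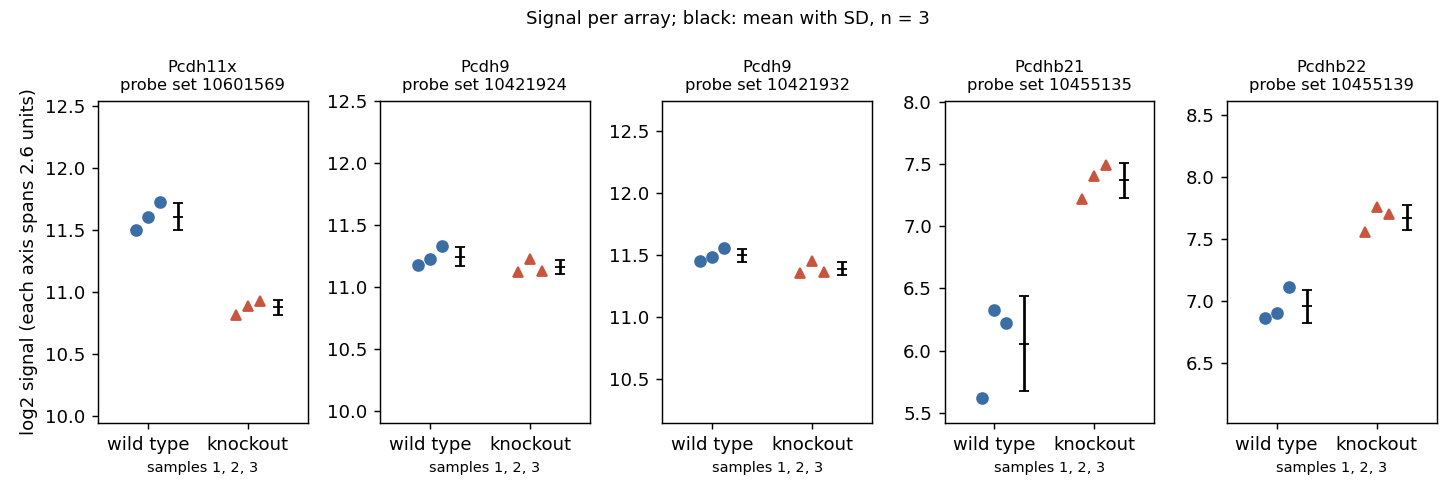
Log2 signal of Pcdh11x, both Pcdh9 probe sets, Pcdhb21 and Pcdhb22 (vertical axes, each spanning the same number of log2 units) in wild-type samples (circles) and knockout samples (triangles), with the mean and SD of 3 samples in black. Knockout values lie below wild-type values for Pcdh11x and above them for Pcdhb21 and Pcdhb22, and the groups nearly meet or overlap for Pcdh9.

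Pcdh11x is X-linked, and values that bear on the X chromosome were read beside it. Xist, the RNA that coats the inactive X chromosome, gave 13.60 ± 0.080 on wild-type and 13.58 ± 0.082 on knockout arrays (SD, n = 3 each; log2 difference -0.02, limma adjusted p = 0.985). The Y-linked genes Kdm5d, Eif2s3y and Uty differed by 0.01, 0.00 and 0.06 log2 units, at signals of 4.77 to 6.12 in the range of the dim reference. Of 739 X-linked genes 16 were called higher and 17 lower, with a median difference of 0.00. Over all genes with a single-gene probe set, 2.42% were called higher and 2.01% lower. By the order of the gene table, the nearest measured neighbours of Pcdh11x on either side were Pabpc5, a cytoplasmic poly(A)-binding protein gene, and Nap1l3, of the nucleosome assembly protein family. Pabpc5 differed by 0.32 log2 units (limma adjusted p = 0.0634) and Nap1l3 by -0.06 (adjusted p = 0.943). None of the 5 nearest measured genes on either side passed.

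The other 11 non-clustered probe sets, of 10 genes, had changes between -0.14 and 0.18 log2 units, and none passed. The median was -0.04, beside -0.00098 over all probe sets. Pcdh20 had the largest of these changes. It gave 6.84, 6.78 and 6.63 on the wild-type arrays and 6.90, 7.06 and 6.84 on the knockout arrays, so that the groups were separated by less than 0.01 (log2 difference 0.18, 95% interval -0.02 to 0.39, limma adjusted p = 0.534). Pcdh1, expressed in airway epithelium, gave 6.89, 6.96 and 6.91 on the wild-type arrays and 6.70, 6.88 and 6.78 on the knockout arrays (log2 difference -0.14, 95% interval -0.29 to 0.02, adjusted p = 0.539). The knockout values of Pcdh1 lay just below the wild-type ones, in the dim range. Pcdh1 lies on chromosome 18 beyond the gamma array, as does Pcdh12, a protocadherin of vascular endothelium.

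Pcdh12 and Pcdh17, a delta protocadherin gene of synapses, each had an SD of 0.27 in the knockout, beside 0.019 and 0.054 in the wild type. Pcdh12 gave 7.66, 7.35 and 7.12 in knockout samples 1 to 3 beside 7.44 to 7.47 in the wild type. Pcdh17 gave 7.70, 7.28 and 7.18 beside 7.44 to 7.53. In both, knockout sample 1 was above and the other 2 below all wild-type samples, and the mean differences were -0.07 and -0.08. Pcdh15, a component of the tip links of inner ear hair cells, has a pair of probe sets, which differed by 0.12 and -0.04 log2 units. The epilepsy-associated gene Pcdh19 differed by 0.13, Pcdh7 by 0.04, Pcdh8, an activity-regulated gene of neurons, by -0.02, Pcdh18 by -0.07 and Pcdh10, a gene often silenced by methylation in tumours, by -0.08. The 95% intervals of these genes all included 0.

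The clustered genes were represented mainly by the beta array. The alpha probe set gave 7.07, 7.14 and 6.84 on the wild-type arrays and 7.16, 7.04 and 6.86 on the knockout arrays, a difference of 0.00 log2 units (95% interval -0.27 to 0.28, limma adjusted p = 0.998). Since it carries 14 symbols, it does not show which alpha gene contributed to the signal.

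Pcdhb21 gave 5.62, 6.33 and 6.22 in wild-type samples 1 to 3 and 7.22, 7.41 and 7.49 in knockout samples 1 to 3. The groups lay apart by more than the range within either, and wild-type sample 1 was the lowest of its group. The mean rose from 6.06 ± 0.38 to 7.37 ± 0.14 (SD, n = 3 each), a log2 change of 1.32 ± 0.19 (SE, 95% interval 0.85 to 1.79, limma adjusted p = 0.0201). Without wild-type sample 1 the change was 1.10, and it was still called (adjusted p = 0.0139).

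Pcdhb22, the next gene in the array, gave 6.86, 6.90 and 7.11 on the wild-type arrays and 7.56, 7.76 and 7.70 on the knockout arrays, again with all knockout values above all wild-type values. The mean rose from 6.96 ± 0.13 to 7.67 ± 0.10 (SD, n = 3 each), a log2 change of 0.71 ± 0.090 (SE, 95% interval 0.50 to 0.93, limma adjusted p = 0.0108). The wild-type means of both genes lay under the dim reference's 95th percentile of 7.22 and the knockout means above it. Of the 1210 reference probe sets, 3 were called higher, beside 1.63% of all probe sets, and none lower by limma. They are those of the olfactory receptor genes Olfr372 and Olfr373, with log2 changes of 2.15 and 2.02, both larger than that of Pcdhb21, and of Olfr1372-ps1 (0.39).

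Both calls were lost when certain single samples were left out. Leaving out 1 sample at a time, Pcdhb21 was no longer called without wild-type sample 3 or knockout sample 1, 2 or 3 (limma adjusted p 0.053, 0.056, 0.0949 and 0.0936), and Pcdhb22 was no longer called without wild-type sample 1 or 2 or knockout sample 2 or 3 (0.0549, 0.0542, 0.0518 and 0.06). The changes themselves stayed between 1.10 and 1.45 log2 units for Pcdhb21 and between 0.67 and 0.79 for Pcdhb22 over these 6 fits. The fit without knockout sample 2 and that without knockout sample 3 called neither gene.

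**Figure D3:**
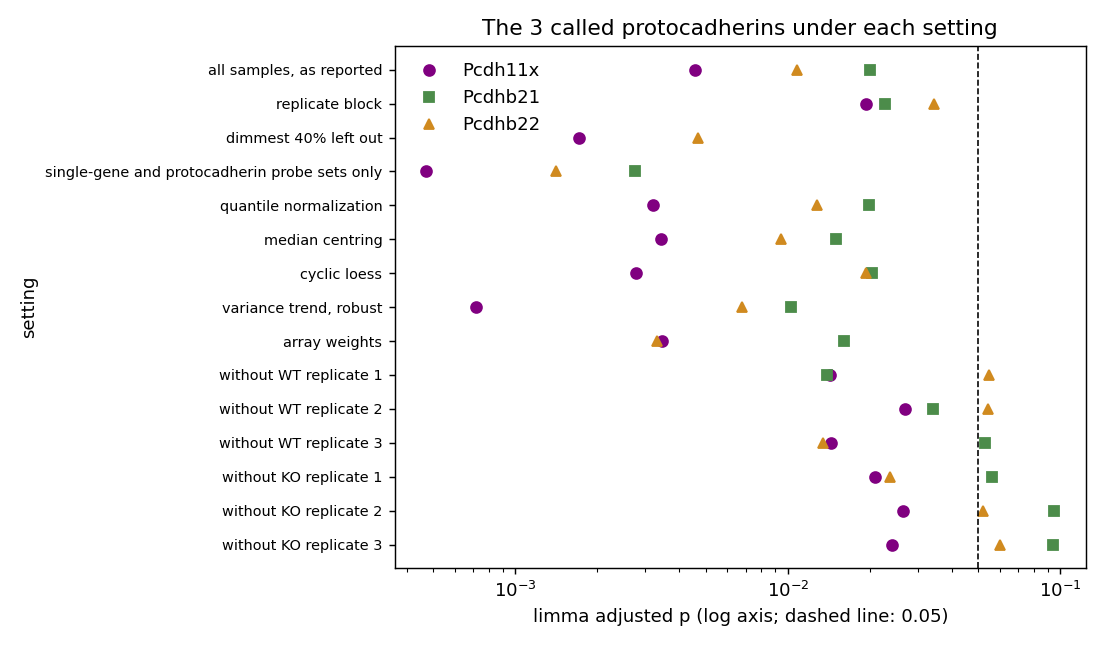
Limma adjusted p (horizontal log axis, dashed line at 0.05) of Pcdh11x, Pcdhb21 and Pcdhb22 with all samples and under each alternative setting (rows). All points of Pcdh11x lie left of the line, and Pcdhb21 and Pcdhb22 cross it in 4 of the 6 rows that leave out 1 sample. Pcdhb21 has no point where the dimmest 40% were left out, since it is one of them. Pcdhb22 was kept in that row through its higher knockout values, which are part of the mean used by the filter.

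The other 20 beta genes did not pass the test. In the order of the gene table, which is also the order of the probe set numbers, the changes of Pcdhb1 to Pcdhb15 lay between -0.18 and 0.14 log2 units with a median of 0.01, and none of the 15 passed. The next 5, Pcdhb16 to Pcdhb20, had a median of 0.23 and a range of -0.01 to 0.29, and none of them passed either. This division of the array was made after the values were seen. The rank correlation between place in the array and change was 0.44 over 22 genes and 0.26 over the 20 genes before Pcdhb21, on values that share the same 6 arrays. The rank correlation of mean signal with change was 0.42, but that mean includes the knockout arrays, so a rise itself raises it. Place and brightness were not told apart.

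Pcdhb16 had the smallest p among the members not called. It gave 7.95, 7.87 and 8.08 on the wild-type arrays and 8.12, 8.24 and 8.28 on the knockout arrays, groups that did not overlap but nearly met (log2 difference 0.25, 95% interval 0.06 to 0.43, limma adjusted p = 0.247). Pcdhb17 gave 6.81, 6.45 and 6.82 against 6.81, 7.03 and 7.12, with knockout sample 1 inside the wild-type range (log2 difference 0.29, adjusted p = 0.50). Pcdhb19 gave 6.24, 6.25 and 6.51 against 6.64, 6.66 and 6.41, with knockout sample 3 inside the wild-type range (0.23, adjusted p = 0.527). Pcdhb20 gave 5.73, 5.91 and 5.93 against 6.01, 6.19 and 5.96, without overlap (0.19, adjusted p = 0.534). Pcdhb18, between Pcdhb17 and Pcdhb19, differed by -0.01.

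At the start of the array, Pcdhb8 had the largest rise, of 0.14, with 6.83, 6.88 and 6.68 on the wild-type arrays and 6.93, 6.89 and 6.98 on the knockout arrays. Its groups were separated by 0.01 or so, and the change did not pass (limma adjusted p = 0.587). Pcdhb11 had the largest fall, of -0.18 with a 95% interval of -0.45 to 0.09, and its groups overlapped. Pcdhb9 was dim, at 4.24 on the wild-type arrays and 4.09 on the knockout arrays, inside the lower part of the dim reference. Beta genes are close in sequence and the probe sequences are not in the sources used here, so how far neighbouring members share a signal is not known.

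**Figure D4:**
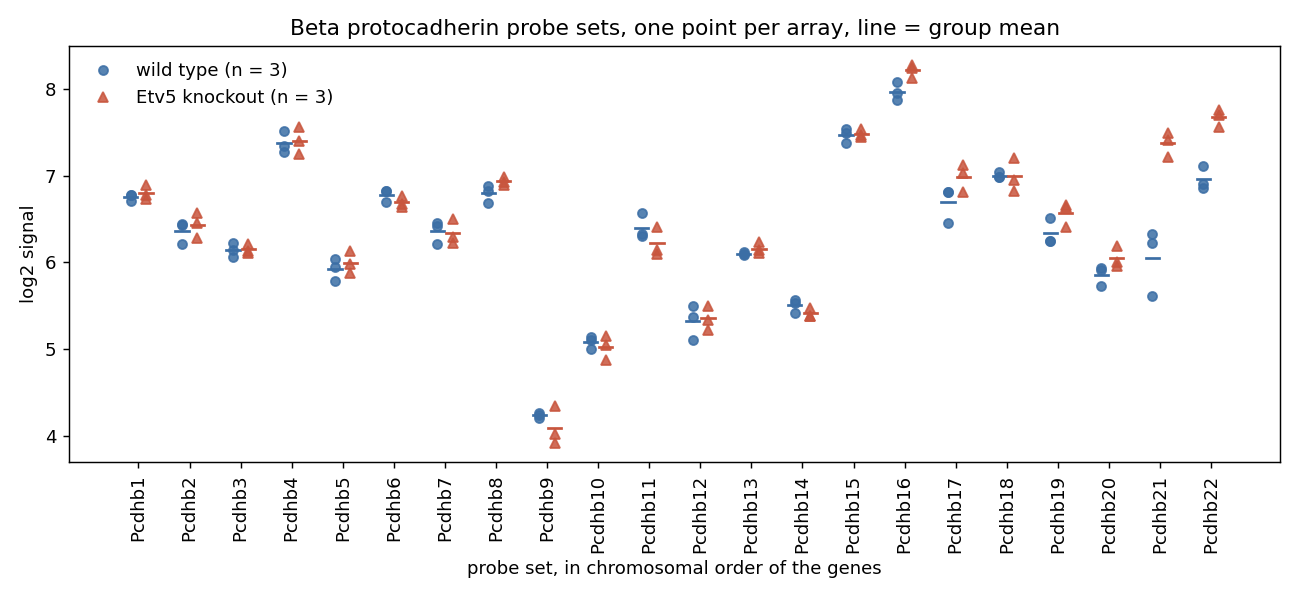
Log2 signal (vertical axis) of 22 beta protocadherin probe sets in chromosomal order of their genes (horizontal axis), with circles for 3 wild-type arrays, triangles for 3 knockout arrays and a line at each group mean. The groups lie clearly apart at Pcdhb21 and Pcdhb22, at the right end, and overlap or nearly meet in the other 20.

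Over all 37 members, the groups did not overlap for 9, beside 16.5% of all probe sets. In 6 of these the knockout was higher (8.32% of all probe sets) and in 3 it was lower (8.14%). The 6 higher ones were Pcdhb8, Pcdhb16, Pcdhb20, Pcdhb21, Pcdhb22 and Pcdh20, and the 3 lower ones Pcdh11x, Pcdh1 and Pcdh9 by probe set 10421932. The change was above 0 for 20 members and below 0 for 17, with a median of 0.01. The typical spread of the members was a little larger than that of the arrays as a whole, with a median SD of 0.11 on the wild-type arrays and 0.12 on the knockout arrays beside 0.087 and 0.098 over all probe sets. Dim members also shared array differences. Of the 34 members not called, 19 had their highest wild-type value in sample 2 and 20 their highest knockout value in sample 2. The median of the 20 beta members not called was 6.45 and 6.53 on those arrays and 6.25 to 6.37 on the other 4, and the median of the dim reference was also highest in knockout sample 2 (5.61, beside 5.50 to 5.55).

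**Figure D5:**
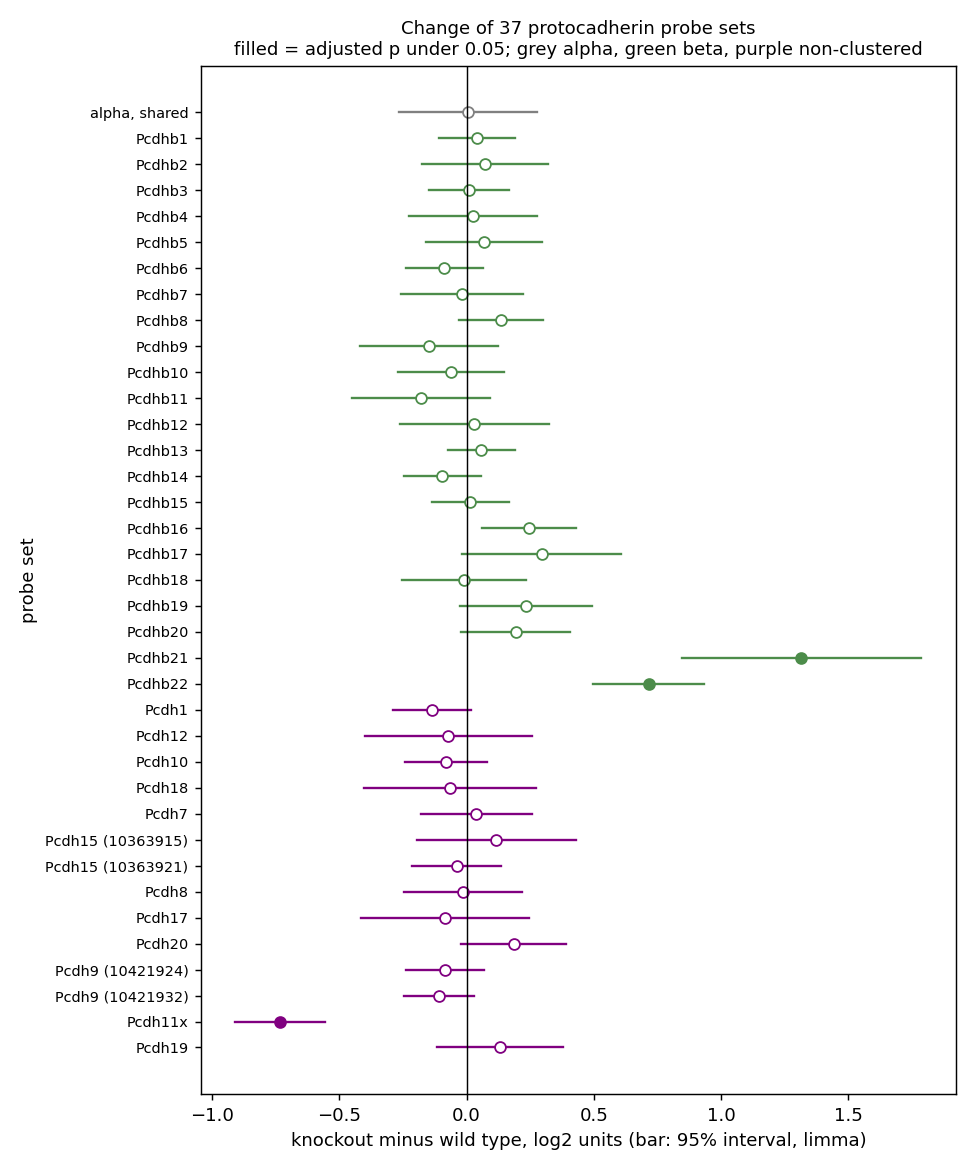
Knockout minus wild-type difference in log2 units with its 95% interval from limma (horizontal axis) for 37 protocadherin probe sets (rows; grey alpha, green beta in chromosomal order, purple non-clustered). Filled points mark the 3 with an adjusted p under 0.05, Pcdhb21 at 1.32, Pcdhb22 at 0.71 and Pcdh11x at -0.73; the others lie between -0.18 and 0.29.

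Genes that lie beside the clustered arrays on chromosome 18 were not called higher. Slc25a2, a mitochondrial ornithine transporter gene, and Taf7, encoding a TFIID subunit, follow Pcdhb22 before the gamma array. Slc25a2 gave 7.29, 7.46 and 7.00 on the wild-type arrays and 7.38, 7.47 and 7.59 on the knockout arrays, with overlap (log2 difference 0.23, limma adjusted p = 0.639), and Taf7 differed by 0.10 (adjusted p = 0.867). Beyond the gamma array, the formin gene Diaph1 and the histone deacetylase gene Hdac3 differed by -0.01 and 0.01. Of 21 measured flanking genes, none was called higher and 1 lower, the glucocorticoid receptor gene Nr3c1 (-0.32, adjusted p = 0.0356), and their median change was 0.01. The shares over all genes with a single-gene probe set were 2.42% higher and 2.01% lower. Nr3c1 lost its call in all 6 fits that left out 1 sample (highest adjusted p 0.162).

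Genes taken here as regulators of the clustered arrays gave 1 call. Of 24 measured regulators, among them Ctcf, the cohesin subunits, the DNA methyltransferases and the repressors Smchd1, Setdb1 and Rest, none was called higher and 1 lower. This was Wapl, which releases cohesin from chromatin, with 11.33, 11.28 and 11.24 on the wild-type arrays and 11.00, 11.01 and 10.99 on the knockout arrays (log2 change -0.29, limma adjusted p = 0.0358). The values did not overlap, but the call was lost in all 6 fits that left out 1 sample (highest adjusted p 0.171). The median of the list was -0.0002, beside -0.0039 over all 19938 genes with a single-gene probe set, of which 2.42% were called higher and 2.01% lower.

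Among partners and signalling proteins of protocadherins, 2 of 19 measured genes were lower and none higher, beside 2.01% and 2.42% of all genes, the shares to set beside each list below too. Ret, a receptor tyrosine kinase that phosphorylates clustered protocadherins in neurons, fell from 11.21 ± 0.042 to 8.74 ± 0.17 (SD, n = 3 each; log2 change -2.47, limma adjusted p = 0.000175). Marcks, an actin-regulating substrate of protein kinase C through which gamma protocadherins act on dendrites, gave 11.96, 11.98 and 11.96 against 10.94, 11.03 and 11.13 (log2 change -0.93, adjusted p = 0.00106). In both genes all knockout values were below all wild-type values, and both calls held in all 6 fits that left out 1 sample. The median change of the list was 0.00.

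Of 46 measured genes of other cadherins, 2 were higher and 1 lower, and the median change was -0.01. Fat4, a giant atypical cadherin of planar polarity, gave 6.92, 7.25 and 6.96 on the wild-type arrays and 8.74, 8.86 and 8.73 on the knockout arrays (log2 change 1.73, limma adjusted p = 0.000599). Cdhr2, a cadherin of intestinal microvilli once called Pcdh24, gave 6.96, 7.19 and 6.75 against 7.90, 8.32 and 8.18 (1.17, adjusted p = 0.0114). The wild-type means of Fat4 and Cdhr2, 7.04 and 6.97, lay under the dim reference's 95th percentile of 7.22, and their knockout means above it. Clstn3, the synaptic cadherin-like protein calsyntenin 3, fell from 8.17 to 7.63 (-0.54, adjusted p = 0.00773). Fat4 and Clstn3 kept their call in each fit without 1 sample, and Cdhr2 lost it without wild-type sample 1 or knockout sample 2 or 3 (highest adjusted p 0.0602). Among 12 catenins and related genes, which link classical cadherins to the cytoskeleton, 1 was lower, the p120 catenin gene Ctnnd1 (-0.36, adjusted p = 0.0321), and its call was lost in every fit without 1 sample except that without knockout sample 2 (highest adjusted p 0.152).

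Markers of other cell types, including those that express protocadherins, were read beside these changes. Of 13 neuronal markers none was higher and Tubb3, a neuronal tubulin gene, was lower (-0.44, limma adjusted p = 0.0288), a call lost in every fit without 1 sample except that without knockout sample 1 (highest adjusted p 0.136). Their mean log2 signal per array was 7.07 to 7.19 in the wild type and 7.03 to 7.13 in the knockout. Map2 also had an unadjusted limma p under 0.05 (log2 difference -0.26, adjusted p = 0.129), and the median change of the neuronal list was -0.0056. None of 6 glial and 16 stromal and endothelial markers passed limma, at an unadjusted p under 0.05 or after adjustment; the array means of the stromal list were 6.89 to 7.07 and 6.86 to 7.00. Of 10 myeloid markers, Ly6g and the integrin gene Itgam were higher (1.14 and 0.60, adjusted p = 0.0156 and 0.0235), while the other 8 did not pass. Itgam lost its call without wild-type sample 1 or 3 or knockout sample 1 or 2 (highest adjusted p 0.112), and Ly6g without wild-type sample 1 or knockout sample 2 or 3 (0.0694). The wild-type mean of Ly6g, 6.55, lay under the dim reference's 95th percentile of 7.22, and that of Itgam, 7.24, just above it. The myeloid array means were 7.05 to 7.17 in the wild type and 7.20 to 7.37 in the knockout. The median change of that list was 0.02, with changes of both signs, and Cd68 also had an unadjusted limma p under 0.05. The part of these markers in the protocadherin changes was not tested. None of 8 T and NK cell markers passed after adjustment, and Cd4 and Ncr1 had an unadjusted p under 0.05. In bulk RNA, fewer cells expressing a gene and less RNA per cell cannot be told apart.

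RefSeq promoter windows on GRCm38.p6, 300 bases long around the start, matched 9 non-clustered genes with 10 windows; Pcdh11x, Pcdh1, Pcdh12 and the clustered genes had none. The letters CGCT, the core of the conserved element of clustered promoters, occurred on either strand in all 10, beside 61.8% of 32851 windows. GGAA, the core of ETS sites, occurred in 8 of 10, beside 96.0%. The longer ETS site CCGGAAGT, which contains GGAA, occurred in none, beside 3.89%. These are matches of letters, which depend on base composition, and no site was tested.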

How the data were processed

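The deposited table holds log2 signals of 35556 probe sets for 6 samples, 1 column each, from biotin-labelled RNA on Affymetrix arrays of 1 colour, as per the labels. The submitters' processing notes name Partek 6.5 and RMA, which corrects background, quantile-normalizes and summarises probes. The values (2.58 to 14.7) show a log2 scale. RMA compresses differences of dim probe sets. For filters, chip definition and detection calls, nothing is given in the sources used here, and the number of arrays limits the precision.

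Genotypes and sample numbers came from sample titles. Probe sets were named through the platform annotation (21789 with 1 symbol, 1621 with several, 12146 with none listed); all 36 single-symbol members matched the GRCm38.p6 gene table by identifier. That table gave chromosomes and gene order; no positions are printed, since the array's build is not given. A list gene is represented by its single-gene probe set of highest mean.

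Knockout was compared with wild type in R 4.3.3 with limma 3.58.1 (lmFit, then eBayes with no trend, no covariate, all samples and probe sets, 6.23 degrees of freedom), with Benjamini-Hochberg adjustment over all probe sets at 0.05 and a fit tested on simulated data. An exact permutation test of 3 against 3 cannot go below p = 0.10 and was not used. Genes to name were the members called, up to 3 further of smallest p per group, Etv5 and called genes of each list, up to 4; other members were named after their values were seen, to account for each. The neighbours of Pcdh11x and the sex-linked genes were also chosen then. Members, lists and rules were chosen with earlier results of these data known. Alternatives tried were a block for the sample number, the dimmest 40% of probe sets left out, fewer probe sets adjusted over, quantile, median and cyclic loess normalization, a robust variance trend, array weights, each sample left out, other thresholds and single-symbol members. Figures were drawn with matplotlib 3.10.9.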

Additional observations from a re-analysis of the deposited data

How the results depend on the processing

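No result changed direction in any setting run where it was called in either fit. Leaving out 1 sample at a time, the count of probe sets called over the whole table, 1095 with all samples, was 565 to 857; protocadherins called higher were 0 to 1, those called lower stayed at 1, and the genes called in the lists of regulators, partners, cadherins, catenins and flanking genes, 8 with all samples, were 4 to 6. With the sample number as a block the whole table gave 544 calls and these lists 5, while the same numbers of protocadherins were called (2 higher and 1 lower). Same-numbered samples were not treated as paired: their deviations from the group means correlated at -0.12, 0.016 and 0.26, and 2 of 6 samples correlated best with their own number. With the dimmest 40% of probe sets left out, 26 of 37 members, Pcdhb21 included, were not tested and 1 was called higher. That 1 was Pcdhb22, and the filter used the mean over all 6 arrays (7.32 for Pcdhb22). Its wild-type mean was 6.96 and its knockout mean 7.67, so it passed the filter through its higher knockout values. This setting is therefore no separate support for its call. At a threshold of 0.01, 0 were called higher and 1 lower. Quantile, median and cyclic loess normalization, a robust variance trend, array weights, single-gene probe sets, single-symbol members and a threshold of 0.10 gave the same counts of protocadherins. Signal over background limits most members, which lay in the dim range.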

Other observations

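By number, 2 probe sets without a listed gene symbol follow that of Pcdhb22. Probe set 10455148 gave 8.23, 8.30 and 8.38 on the wild-type arrays and 8.16, 8.18 and 8.06 on the knockout arrays, without overlap (log2 difference -0.17, limma adjusted p = 0.363), and probe set 10455146 gave 6.84, 6.96 and 6.88 against 6.97, 6.77 and 6.82. Of 470 genes of chromosome 18, 15 were called higher and 11 lower by limma at an adjusted p under 0.05, with a median difference of -0.0027 log2 units. The shares over all genes with a single-gene probe set were 2.42% higher and 2.01% lower.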
